A study of Mus musculus with 8 samples.

Results

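Expression arrays of red cell precursors from the mouse yolk sac were divided into 4 with a wider spread of values and 4 with a narrower one. This division cut across genotype. The wide arrays were knockout replicates 11 and 12 with wild-type replicates 7 and 9. The narrow arrays were knockout replicates 13 and 14 with wild-type replicates 3 and 5. All 8 arrays of the series belong to one side or the other, 4 a side and 2 of each genotype a side. The sides were chosen from the values themselves, so every wide minus narrow difference below is a description and carries no test. Tests are given for genotype only, and those that use the sides describe only, since the same values chose the sides.

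Each array measured RNA of primitive erythroid precursors cut by laser from frozen yolk sac sections at embryonic day 9.5. The knockout group was KLF2-/- embryos, genotyped one by one, and the controls were FVB/N wild-type embryos. A replicate pooled captured cells of several yolk sacs from more than one litter, and the RNA was amplified over a pair of labelling cycles. The loss of KLF2 was present in the whole embryo, the sources disagree on whether its mothers were KLF2-/- or KLF2+/-, and no source names the strain of that line. Strain and genotype therefore cannot be told apart. The labels give no slide, litter, scan or processing batch per array, so a batch that coincides with the sides was not tested.

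Primitive erythroid cells are the first red cells of the embryo. They arise in the blood islands of the yolk sac between visceral endoderm, mesothelium and endothelium, and they fill with embryonic globins while they make haem and lay down the red cell membrane. Megakaryocytes, the platelet precursors, arise beside them and share regulators such as GATA1 and TAL1. KLF1 is a main activator of red cell genes, and KLF2 is a related zinc finger factor. Klf2 itself measured 5.38, 5.77, 7.15 and 5.89 in knockout 11, 12, 13 and 14 and 5.18, 5.28, 4.97 and 5.70 in wild type 3, 5, 7 and 9. Its probe set was thus not lower in the arrays labelled knockout but 0.77 higher (SE 0.34, limma adjusted p = 0.54 with a term for the sides). This goes against what the label alone would give. No source used here says whether the probe set lies in the deleted part of the gene, so it does not check the labels, and knockout and wild type below name arrays by their labels. The labelled cells were there on all arrays: Hbb-bh1, an embryonic beta-like globin, lay between 14.01 and 14.17 on the log2 scale, against a highest value on any array of 14.17. Markers of the neighbouring layers were bright too, with Apoa1, an apolipoprotein of visceral endoderm, between 8.25 and 12.59 and the collagen gene Col1a2 between 8.56 and 11.69.

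The spread differed little between the sides. The SD of the 22626 log2 values of an array was 2.22 in knockout 11, 2.23 in knockout 12, 2.13 in wild type 7 and 2.17 in wild type 9. It was 2.08 in knockout 13, 2.06 in knockout 14, 2.08 in wild type 3 and 2.12 in wild type 5. The closest arrays on the 2 sides were wild type 7 and wild type 5, whose SDs differed by 0.0169. Wild type 7 and 9, on the same side, lay further apart, so the cut was not the widest gap. The interquartile range separated the sides by more, from 2.92 to 3.31 in the wide arrays against 2.66 to 2.82 in the narrow ones. Here too wild type 7 and 9, at 2.92 and 3.06, lay further apart than wild type 7 did from the nearest narrow array, at 2.82. The medians of all arrays lay between 5.08 and 5.20. Both ends of the distribution differed: the lower quartile lay between 3.86 and 4.00 in the wide arrays and 4.05 and 4.13 in the narrow ones, and the upper quartile between 6.92 and 7.17 against 6.79 and 6.88. Values below 4 made up 25.1% to 28.6% of a wide array and 21.8% to 23.8% of a narrow one. The share at 10 or above overlapped, from 4.804% to 5.18% and from 4.49% to 4.91%, with wild type 5 above both wild type 7 and wild type 9. By genotype the SD averaged 2.15 ± 0.09 (SD, n = 4) in knockout arrays and 2.12 ± 0.04 (SD, n = 4) in wild type, which is no finding, since each side was chosen with arrays of both genotypes.

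**Figure D1:**
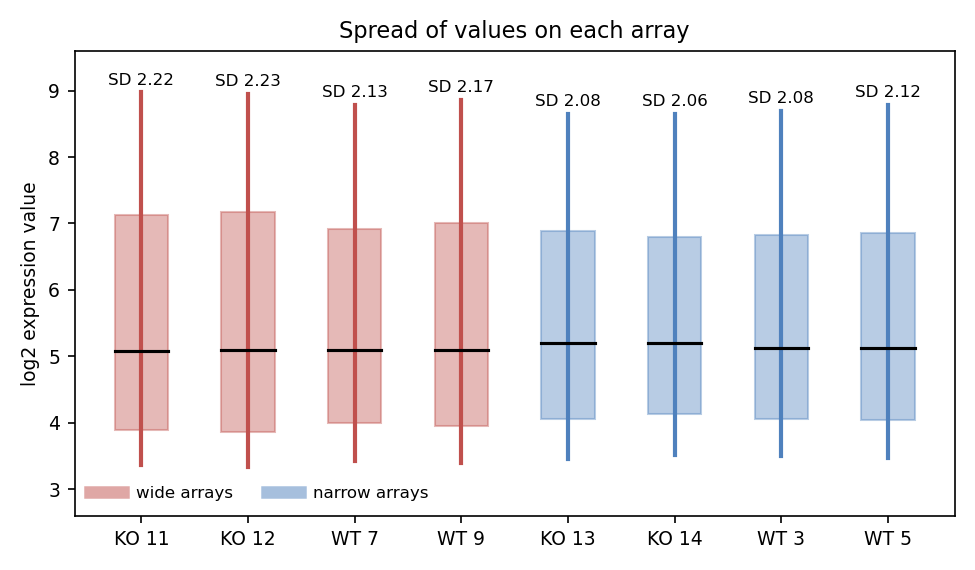
Spread of the deposited log2 values on each array (y axis), with the 4 wide arrays on the left and the 4 narrow arrays on the right. Boxes span the quartiles, black lines mark medians, vertical lines run from the 10th to the 90th percentile, and the number above each array is its SD over all probe sets. Medians lie between 5.08 and 5.20 on every array while the boxes of the wide arrays are taller.

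The wide arrays resembled each other across genotypes, and the narrow arrays did not form one group. The root mean square log2 difference over all probe sets averaged 0.397 over the 6 pairs within the wide side (0.341 to 0.496). It averaged 0.577 within the narrow side (0.372 to 0.647), close to the 0.569 over the 16 pairs between sides (0.497 to 0.691). The closest pair of all was knockout 12 with wild type 9, of different genotype, at 0.341. Only wild type 3 and 5 were alike among the narrow arrays, at 0.372. Knockout 13 and 14 differed from each other by 0.647, and each was closest to a wide wild-type array: knockout 13 to wild type 9 (0.497) and knockout 14 to wild type 7 (0.503). Counted by probe set, 2.58% were at least 2-fold apart in an average pair of wide arrays, against 7.60% in an average pair of narrow arrays and 7.51% between sides. Forcing all arrays to one distribution by quantile normalisation left the order in place, with means of 0.375 within wide, 0.592 within narrow and 0.548 between sides.

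**Figure D2:**
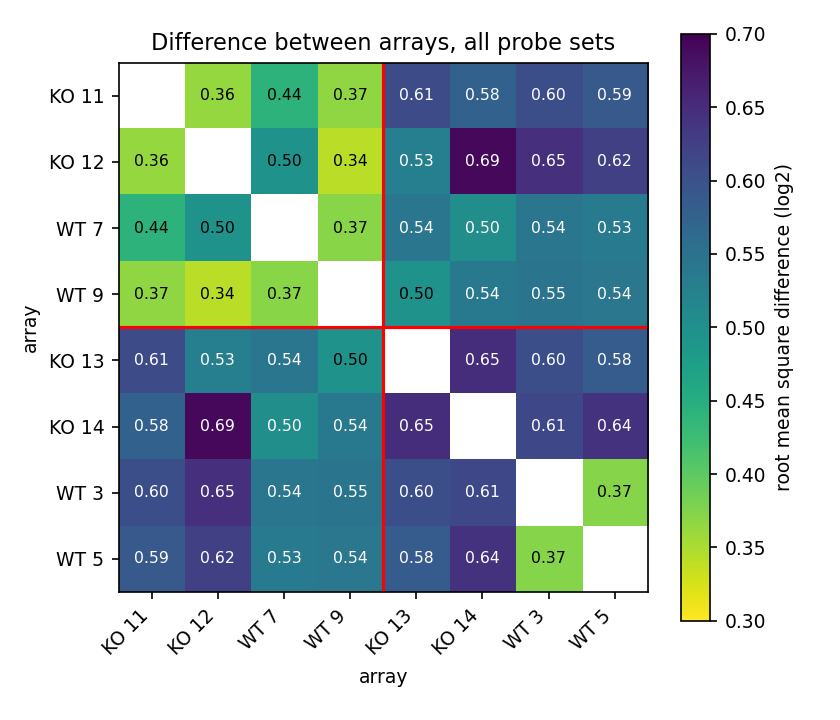
Root mean square log2 difference over all probe sets for every pair of arrays (both axes list arrays, and the colour and number give the difference). Red lines divide wide from narrow arrays. The upper left block of wide arrays holds values from 0.34 to 0.50, and in the lower right block of narrow arrays only wild type 3 with wild type 5 falls in that range.

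Split into the 7 orthogonal contrasts of the 8 arrays, 26.9% of the variance lay between the sides. Genotype held 16.1% and the side by genotype contrast 16.8%. The single difference between knockout 13 and knockout 14 held 20.3%, more than genotype, while the other 3 pairs of same-genotype arrays on a side held 6.39% to 6.72% each. The 2 genotypes shared the difference between the sides in part. Wide minus narrow in the knockout arrays and wide minus narrow in the wild-type arrays, which share no array, correlated across 12393 genes with r = 0.233 (jackknife SE over arrays 0.159) and Spearman's rho of 0.218. Without knockout 13 r was 0.124, and without wild type 9 it was 0.127. After quantile normalisation it was 0.150. All points share the authors' joint normalisation, and genes are not independent replicates. The sides were chosen for a wider spread in both genotypes, and a wider spread raises bright genes and lowers dim ones. Some positive correlation and some overlap of the lists below were therefore built in by the choice. Of 383 genes at least 2-fold higher in the wide knockout arrays (3.09% of all genes) and 385 in the wide wild-type arrays (3.11%), 54 were on both lists, 14.1% of the first and 14.03% of the second, above the 3.11% and 3.09% of all genes. In the other direction 98 genes (0.791%) and 207 genes (1.67%) shared 4, which is 4.08% and 1.93% of the lists. A further 11 genes were 2-fold higher in the wide knockout arrays and 2-fold lower in the wide wild-type arrays.

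Averaged over genotypes, 193 genes were at least 2-fold higher in the wide arrays (1.56% of 12393) and 49 were 2-fold lower (0.395%). On all 4 wide arrays above all 4 narrow ones lay 623 genes (5.03%), and 817 lay below (6.59%). The direction of these counts depended on scaling. Among genes past 2-fold, 79.8% were higher in the wide arrays as deposited, 64.9% after quantile normalisation, 87.6% after centring each array on its median and 46.3% after scaling all arrays to a common interquartile range. Among the genes whose sides did not overlap, 43.3% were higher as deposited, 68.6% after centring and 52.6% at a common interquartile range. Quantile normalisation left 98 genes higher (0.791%) and 53 lower (0.428%) past 2-fold, and 438 (3.53%) and 589 (4.75%) without overlap. The non-overlapping total of 1440 became 2637 without wild type 7, 2311 without knockout 13 and 2341 without knockout 14. It was 1634 to 1970 without any other single array. Leaving out an array can only raise this count, and why the rise differed between arrays was not tested.

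Much of the direction followed how bright a gene was. With genes in 10 equal groups by mean log2 value, the median wide minus narrow difference was -0.10, -0.16, -0.20, -0.18 and -0.11 in the 5 dimmest groups, 0.05 in the next and 0.21, 0.26, 0.23 and 0.11 in the brightest. Of genes in the group with 0.26, 76.4% were higher in the wide arrays, and of those in the group with -0.16, 16.0% were. The knockout arrays ran from -0.31 to 0.38 over these groups and the wild-type arrays from -0.07 to 0.15, so both genotypes bent the same way and the knockout arrays more. After quantile normalisation the medians stayed between -0.08 and 0.04. The means of the 10 groups held 20.7% of the summed squared difference, and the rest was differences among genes of like brightness.

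**Figure D3:**
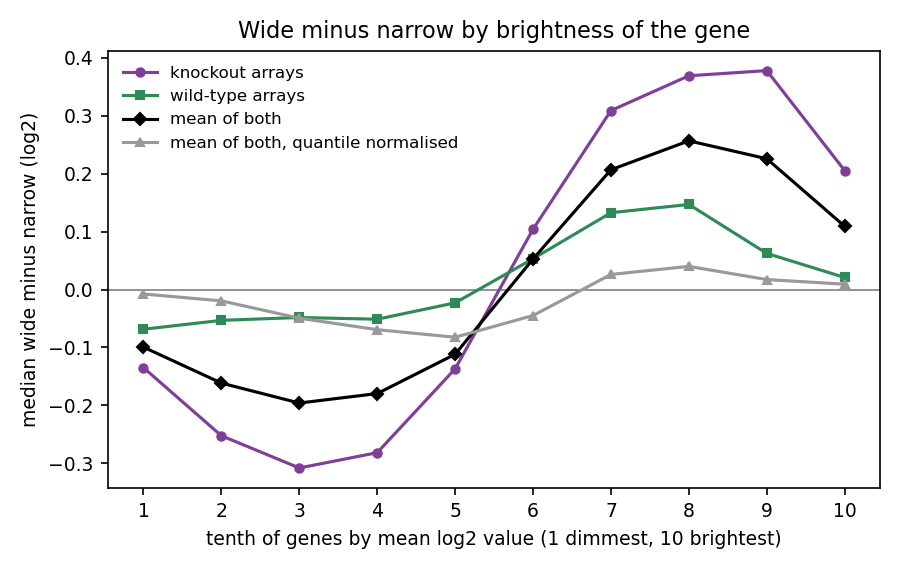
Median wide minus narrow log2 difference (y axis) in 10 equal groups of genes by mean log2 value over the 8 arrays (x axis), for knockout arrays, wild-type arrays, their mean, and the mean after quantile normalisation. The mean runs from -0.20 in the third group to 0.26 in the eighth, and the quantile normalised line stays between -0.08 and 0.04.

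Haem synthesis genes had the highest median among the 25 gene lists examined. Of its 14 measured genes, 13 were higher on average in the wide arrays, with a median difference of 0.58 against -0.04 over all genes, and 0.36 without knockout 13. Of all genes in the brightness group of the list's median level, 64.0% were higher. The haem genes' median beyond that of genes of like brightness was 0.50. The list median itself was 0.20 with all arrays scaled to a common interquartile range. Alas2, the erythroid enzyme that starts haem synthesis, measured 10.21, 9.77, 10.58 and 10.33 in wide arrays knockout 11, knockout 12, wild type 7 and wild type 9. In the narrow arrays it was 7.85 in knockout 13, 10.39 in knockout 14, 7.54 in wild type 3 and 7.88 in wild type 5. Its mean difference of 1.81 thus came from 3 of the 4 narrow arrays and was 1.18 without knockout 13, and knockout 14 stood among the wide ones. Alad, the next enzyme of the pathway, ran from 10.59 to 11.40 in the wide arrays and measured 9.91, 9.68 and 9.53 in knockout 13, wild type 3 and wild type 5, with knockout 14 at 11.40. Tmem14c, a porphyrin transporter of mitochondria, and Urod, the uroporphyrinogen decarboxylase, differed by 1.14 and 1.11 (0.66 and 0.72 without knockout 13) and had the same 3 arrays lowest. Of all 14 genes, only Slc25a39, a mitochondrial glutathione carrier, had sides that did not overlap, from 12.08 to 12.47 against 11.37 to 12.05. Over all genes 5.03% lay higher in the wide arrays in this way, so 1 of 14 is near that share. In bulk RNA, fewer erythroid cells in a capture and less of these RNAs per cell cannot be told apart.

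The same 3 low arrays recurred in the red cell regulators and membrane genes, a grouping noticed after the values were seen. Knockout 13, wild type 3 and wild type 5 were exactly the 3 lowest arrays for 8 of 14 haem genes, 10 of 25 erythroid regulators and 8 of 23 membrane genes, against 814 of 12393 genes in all (6.57%). They were so for 13 of 34 proteasome and 15 of 47 cell cycle genes too, so the pattern was not limited to red cell genes. Klf1 measured 8.52, 9.15 and 9.14 in those arrays, 10.62 in knockout 14 and 9.43 to 10.73 in the wide arrays, a difference of 0.77 that was 0.25 without knockout 13 and 1.30 without knockout 14. Tal1, another red cell regulator, measured 7.28, 8.57 and 8.59 there, 10.05 in knockout 14 and 8.89 to 9.92 in the wide arrays. Zfpm1, the GATA1 cofactor FOG1, had the largest difference of the regulators (1.26), and Ldb1, which bridges GATA1 complexes, lay between 5.52 and 6.39 in the wide arrays and between 4.67 and 5.49 in the narrow ones. Over the 25 erythroid regulators the median difference was 0.41, with 19 higher, but it was 0.16 without knockout 13. Of all genes in the brightness group of the regulators' median level, 69.1% were higher. Beyond genes of like brightness the median was 0.23. Runx1, which opens the definitive blood programme, went the other way at -0.59.

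Membrane genes followed, with a median of 0.51 (0.31 without knockout 13) and 20 of 23 higher. In the brightness group of their median level 76.4% of all genes were higher. Beyond genes of like brightness the median was 0.42. Kel, which carries the Kell blood group antigen, measured 5.15, 5.11 and 5.64 in knockout 13, wild type 3 and wild type 5, and 6.43 to 7.504 in the other 5 arrays. Dmtn, the actin-bundling protein dematin, differed by 1.16. Bsg, the basigin chaperone of monocarboxylate transporters, broke the pattern: wild type 3 and 5 measured 5.35 and 5.45, while knockout 13 and 14 at 7.59 and 7.13 lay near the wide range of 7.26 to 7.98. Slc4a1, the band 3 anion exchanger, was 9.89 in knockout 13 and between 10.87 and 11.61 in all other arrays, wild type 3 and 5 included. Per array, the mean deviation of the membrane list was -0.43 in knockout 13, -0.59 in wild type 3 and -0.44 in wild type 5, against 0.40 in knockout 14 and 0.03 to 0.43 in the wide arrays.

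The promoters of Alas2, Klf1 and Kel are shown as examples that hold the motif marked below. These genes had the same 3 lowest arrays and sit at different steps of the red cell programme. The sequences are RefSeq's for GRCm38.p6 around the annotated start, read along the gene's strand, with every AGATAA or TGATAA motif of GATA factors in capitals, and with TTATCT or TTATCA for the same motif on the other strand. Alas2 lies on the plus strand at chrX:150547167-150547466, Klf1 on the plus strand at chr8:84901732-84902031 and Kel on the minus strand at chr6:41704276-41704575.
Alas2: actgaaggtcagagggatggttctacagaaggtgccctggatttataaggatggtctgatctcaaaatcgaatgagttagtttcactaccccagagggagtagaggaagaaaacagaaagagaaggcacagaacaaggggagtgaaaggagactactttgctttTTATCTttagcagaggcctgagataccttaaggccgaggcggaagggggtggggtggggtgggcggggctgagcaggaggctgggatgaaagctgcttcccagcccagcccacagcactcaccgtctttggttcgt
Klf1: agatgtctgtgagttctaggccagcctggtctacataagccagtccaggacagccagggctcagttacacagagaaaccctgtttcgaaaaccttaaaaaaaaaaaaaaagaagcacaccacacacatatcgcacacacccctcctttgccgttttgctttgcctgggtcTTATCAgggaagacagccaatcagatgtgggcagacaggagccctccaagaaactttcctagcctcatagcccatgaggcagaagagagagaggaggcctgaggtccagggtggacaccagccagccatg
Kel: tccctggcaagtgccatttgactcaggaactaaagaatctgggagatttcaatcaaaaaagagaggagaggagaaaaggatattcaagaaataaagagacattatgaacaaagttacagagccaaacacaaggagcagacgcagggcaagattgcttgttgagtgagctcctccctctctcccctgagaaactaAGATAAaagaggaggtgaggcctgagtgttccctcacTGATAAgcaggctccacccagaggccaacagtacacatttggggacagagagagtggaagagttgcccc
Such a motif stood in 2 of 12 haem synthesis promoters found in the table, 7 of 18 membrane promoters and 4 of 20 regulator promoters, against 12.2% of 9887 promoters of genes on the array. Urod, Zfpm1 and Tmem14c had the same 3 lowest arrays too, and no such motif in this window. Whether the motif goes with that pattern was not tested. A match describes these letters and shows no binding.

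The 3 embryonic globins did not move together. Hbb-bh1 differed by -0.0016 between sides on average, but it was the brightest probe set on every array except wild type 3, and a difference at that end of the scale may not be measurable. Hbb-y, the other embryonic beta-like globin, measured 13.54, 13.16, 13.55 and 13.28 in the wide arrays and 13.64, 13.67, 13.81 and 13.76 in the narrow arrays, a difference of -0.34 with no overlap. Its other probe sets differed by -0.36 and 0.09, and this gene too lies near the top of the scale. Hba-x, the embryonic alpha-like globin, differed by 0.59 the other way, with wild type 3 lowest at 11.82 and the other arrays between 12.51 and 13.17. The list median of 0.00 and mean of 0.08 differ in sign before rounding. At a common interquartile range all 3 globins were lower in the wide arrays, Hbb-bh1 by -1.04, a scaling that lowers the brightest probe sets of arrays with a wide range.

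Megakaryocyte genes were among the few groups whose 2 sides stood apart. The mean deviation of the 13 measured genes was 0.07 to 0.38 in the wide arrays and -0.31 to -0.13 in the narrow arrays, the median difference was 0.34 (0.22 without knockout 14), and the direction held under every scaling tried. Ppbp, the platelet basic protein, measured 6.57, 5.92, 7.89 and 6.30 in the wide arrays and 4.19, 4.89, 5.48 and 5.68 in the narrow ones. Gp1bb, a subunit of the platelet von Willebrand receptor, lay between 6.19 and 6.83 against 4.77 and 5.22, although its second probe set differed by -0.36. Pf4, the platelet chemokine, lay between 10.51 and 11.18 against 9.81 and 10.36. Itgb3, Nbeal2, Selp and Treml1 were slightly lower in the wide arrays, by -0.23, -0.12, -0.12 and -0.17.

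Lists with sides apart numbered 7 of 25, 5 higher in the wide arrays and 2 lower. Besides megakaryocyte genes, the higher ones were iron handling, histones, oxidative phosphorylation and ribosomal proteins. Histones had a median of 0.23, between 0.11 without wild type 3 and 0.36 without knockout 11, and 0.12 without wild type 7 or 0.14 without knockout 12. Ribosomal proteins (median 0.09, 27 of 39 higher) and oxidative phosphorylation (0.13, 52 of 69 higher) differed little and turned to -0.63 and -0.32 at a common interquartile range. Of all genes in the brightest group, which holds the median level of both lists, 64.0% were higher. The medians of these 2 lists beyond genes of like brightness were -0.05 and 0.02. The ribosomal median was 0.05 without wild type 3, 0.14 without wild type 5 and 0.15 without knockout 14. Iron handling (0.21) turned to -0.14 there and to -0.0047 without knockout 13, and it was 0.14 without knockout 11, 0.13 without knockout 14, 0.09 without wild type 3 and 0.32 without wild type 5. Tfrc, the transferrin receptor that loads iron into red cells, was 9.16 in knockout 13 and 10.63 to 11.69 in the other arrays. Between sides this probe set differed by 0.50, and the gene's other probe sets differed by -0.99 and 0.04. The 2 lists lower in the wide arrays were genes of nerve and muscle that this tissue does not use and the Klf and Sp family. The nerve and muscle genes (median -0.22, 30 of 31 lower) moved to -0.09 after quantile normalisation. Of all genes in the brightness group of their median level, 16.0% were higher. Their median beyond genes of like brightness was -0.07. The Klf and Sp family (median -0.22, 18 of 20 lower) was lower under every scaling tried, and at -0.14 without knockout 13. In the brightness group of its median level 55.0% of all genes were higher, and its median beyond genes of like brightness was -0.30. The 2 higher members of that family were Klf1 at 0.77 and Klf10, a TGF-beta responsive factor picked out after its values were seen, at 0.19. Klf2 differed by -0.42 between sides, and by -0.11 without knockout 13, -0.74 without knockout 14 and -0.24 without wild type 7.

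Cell cycle genes were higher in the wide arrays under each scaling, with a median of 0.47, 37 of 47 higher, and 0.16 at a common interquartile range. Of all genes in the brightness group that holds the list's median level, 75.1% were higher. The list's median beyond genes of like brightness was 0.28. Ccnd3, the D-type cyclin of red cell precursors, measured 9.24, 9.22, 8.56 and 8.96 in the wide arrays and 7.70, 8.75, 6.70 and 6.91 in the narrow arrays. Tk1, the thymidine kinase of dividing cells, lay between 7.63 and 8.18 against 5.76 and 7.33, and Cdk4 between 9.71 and 10.30 against 8.63 and 9.32. Cenpe, a motor of the mitotic spindle, went the other way by -1.06. Spliceosome (0.30), proteasome (0.32), mitochondrial ribosomal (0.25) and glycolysis genes (0.14) were higher as deposited and lower at a common interquartile range, at -0.15, -0.21, -0.06 and -0.16. Beyond genes of like brightness their medians were 0.17, 0.18, 0.07 and -0.04. Without knockout 13 the spliceosome median was 0.20, the proteasome 0.20 and the mitochondrial ribosomal 0.13, and without knockout 14 the mitochondrial ribosomal was 0.39 and glycolysis 0.01. Glycolysis stood at 0.22 without wild type 5 and 0.24 without wild type 7.

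The other lists had sides that overlapped. Endothelial genes had a median of 0.17, with 23 of 33 higher. Of all genes in the brightness group of the list's median level, 55.0% were higher. The endothelial median was 0.07 without knockout 12, 0.09 without knockout 14 and 0.11 without wild type 9. On all wide above all narrow arrays lay 4 of the 33, Tek, Stab1, Stab2 and Egfl7, and Erg lay below. Over all genes 5.03% lay above and 6.59% below, and counts this small say little about the list. Stab2, Egfl7 and Erg are named after their values were seen. Tek, the angiopoietin receptor, lay between 7.06 and 7.98 in the wide arrays and 5.85 and 6.88 in the narrow ones, and Stab1, a scavenger receptor of endothelium, between 7.03 and 8.05 against 5.97 and 6.61. Mesenchyme and mesothelium genes had a median of 0.31, which was 0.06 without knockout 14 and 0.69 without knockout 13. Immediate early and stress genes stood at -0.26, at -0.12 without knockout 13 and at -0.41 without knockout 14. Placental genes stood at -0.25, and at -0.16 without wild type 5. Macrophage genes stood at -0.06, and at 0.05 without wild type 9, -0.17 without wild type 7, -0.09 without knockout 12 and -0.02 without knockout 13. Progenitor (-0.07), testis (-0.11) and sex-linked genes (-0.18) turned to 0.04, 0.10 and 0.02 at a common interquartile range. Progenitor genes stood at -0.02 without knockout 13 or wild type 3 and at -0.12 without wild type 5, and testis genes at -0.16 without knockout 11, -0.07 without knockout 12 and -0.05 without wild type 9. Beyond genes of like brightness, the medians of macrophage and testis genes turned to 0.05 and 0.06.

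**Figure D4:**
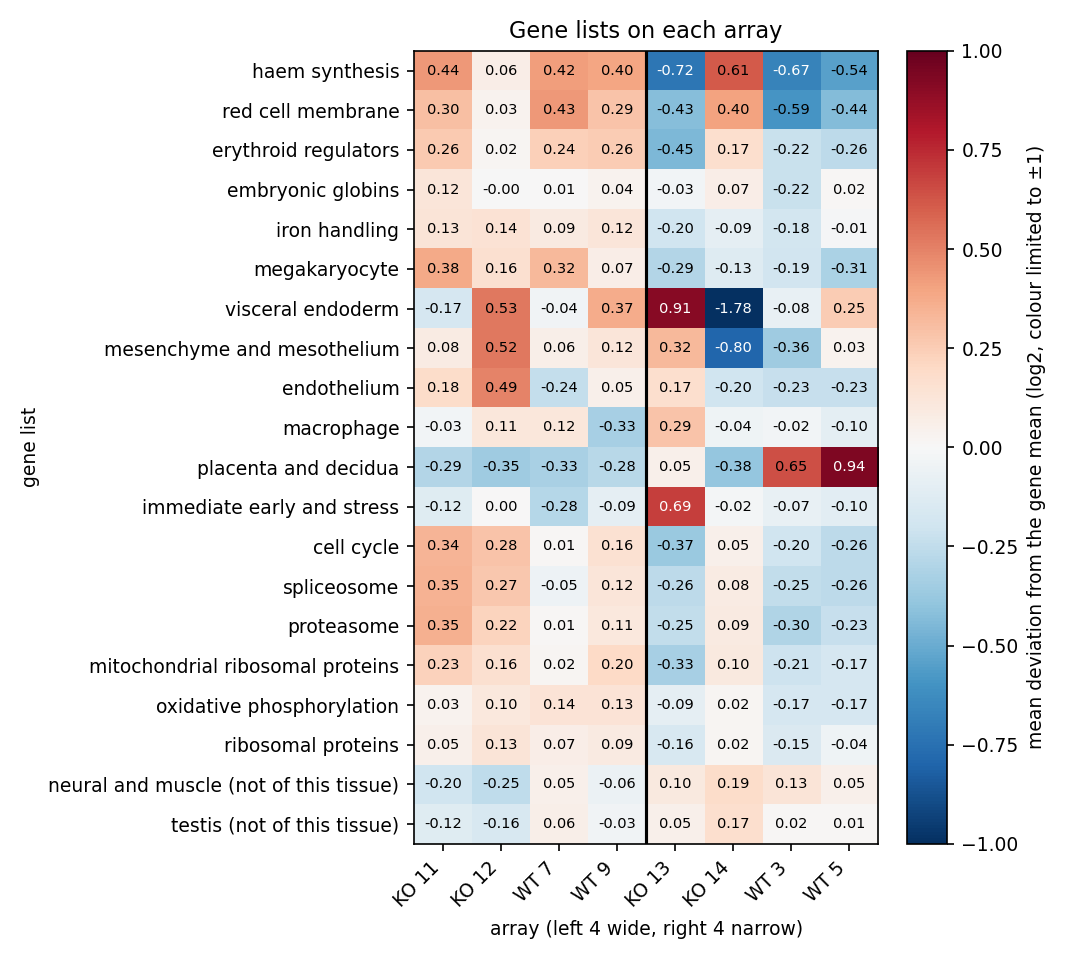
Mean deviation from each gene's own 8-array mean (log2, colour and number) for 20 gene lists (y axis) on the 8 arrays (x axis), wide arrays left of the line and narrow arrays right of it. Haem synthesis reads -0.72, -0.67 and -0.54 in knockout 13, wild type 3 and wild type 5 against 0.61 in knockout 14, and visceral endoderm reads -1.78 in knockout 14 alone.

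The narrow arrays departed from the rest each in its own genes. Knockout 14 had 268 probe sets at least 2-fold below all 7 other arrays and 5 above. Knockout 13 had 103 above and 82 below, wild type 3 had 67 above, and wild type 5 had 65 above. Among the wide arrays these counts reached 15 above and 11 below at most. Wild type 3 and 5 together had 41 probe sets above and 53 below all the others, and knockout 13 and 14 together had 0 and 3. The genes named in the next 3 paragraphs from these counts were chosen after their values were seen.

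Knockout 14 was low in visceral endoderm. It was the lowest array for 30 of 37 genes of that layer (81.1%) and 18 of 31 mesenchyme and mesothelium genes, against 14.3% of all genes. Cubn, the endocytic receptor cubilin, measured 5.55 there and 8.88 to 10.09 in the other 7 arrays. Fgb, a fibrinogen chain, measured 4.19 against 7.60 to 9.42, and Slc2a2, the glucose transporter GLUT2, 4.56 against 8.24 to 9.85. Apoe followed another order: it was 6.44 in knockout 14, 6.55 in wild type 3 and 6.46 in wild type 5, 9.83 in knockout 13 and 8.49 to 10.19 in the wide arrays. The visceral endoderm list differed by 0.24 between sides, and by -0.46 without knockout 14 and 1.07 without knockout 13. It was 0.12, 0.14 and 0.15 without wild type 3, knockout 12 and wild type 9, and 0.41 and 0.46 without wild type 5 and knockout 11. Across the arrays its mean deviation ran from -0.17 to 0.53 in the wide group and from -1.78 to 0.91 in the narrow one, so this layer does not separate the sides. How far the captured share of endoderm contributed to other differences of knockout 14 was not tested.

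Knockout 13 was high in stress genes and low in red cell genes. Its mean deviation over 30 immediate early and stress genes was 0.69, against -0.28 to 0.00 in the other arrays. Ddit4, an inhibitor of mTOR signalling induced by hypoxia and stress, measured 8.21 there and 4.33 to 5.56 elsewhere. Igfbp1, a secreted binder of insulin-like growth factors, measured 9.82 against 3.86 to 5.79, and the heat shock gene Hspa1a 8.37 against 4.05 to 6.17. Its visceral endoderm list stood at 0.91, the highest of the 8 arrays. Ermap, a red cell membrane adhesion protein, was 7.42 there and 8.88 to 10.49 in the other arrays.

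Wild type 3 and 5 held RNAs of the placenta and decidua. Prl8a2, a prolactin family hormone of the decidua, measured 10.87 and 11.61 in them, 7.46 in knockout 13, 3.93 in knockout 14 and 3.39 to 5.08 in the wide arrays. Prl7a1, a prolactin of trophoblast, measured 6.93 and 10.85, against 3.18 to 3.51 in the other 6 arrays, and Htra1, a secreted protease, 8.63 and 9.11 against 4.81 to 6.05. The mean over the list of 21 measured placental genes deviated by 0.65 and 0.94 in these arrays and by -0.38 to 0.05 in the others. Most of the list was dim, with a median level of 3.57, and 3 of its genes were 2-fold lower in the wide arrays. Prl8a2, Prl7a1 and Prl4a1 weighed heavily in that mean. Tpbpa, a marker of the spongiotrophoblast, stayed between 3.04 and 3.81 on every array. Wild type 3 alone carried Sox2, a factor of neural progenitors, at 7.94 against 2.71 to 3.01, and Crabp1, a retinoic acid binder of neural tissue, at 8.67 against 3.71 to 4.15. Wild type 5 alone carried Adm, the peptide adrenomedullin, at 9.41 against 3.78 to 5.24. Both arrays were low in Prmt1, an arginine methyltransferase, at 6.18 and 5.55 against 8.52 to 9.96.

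**Figure D5:**
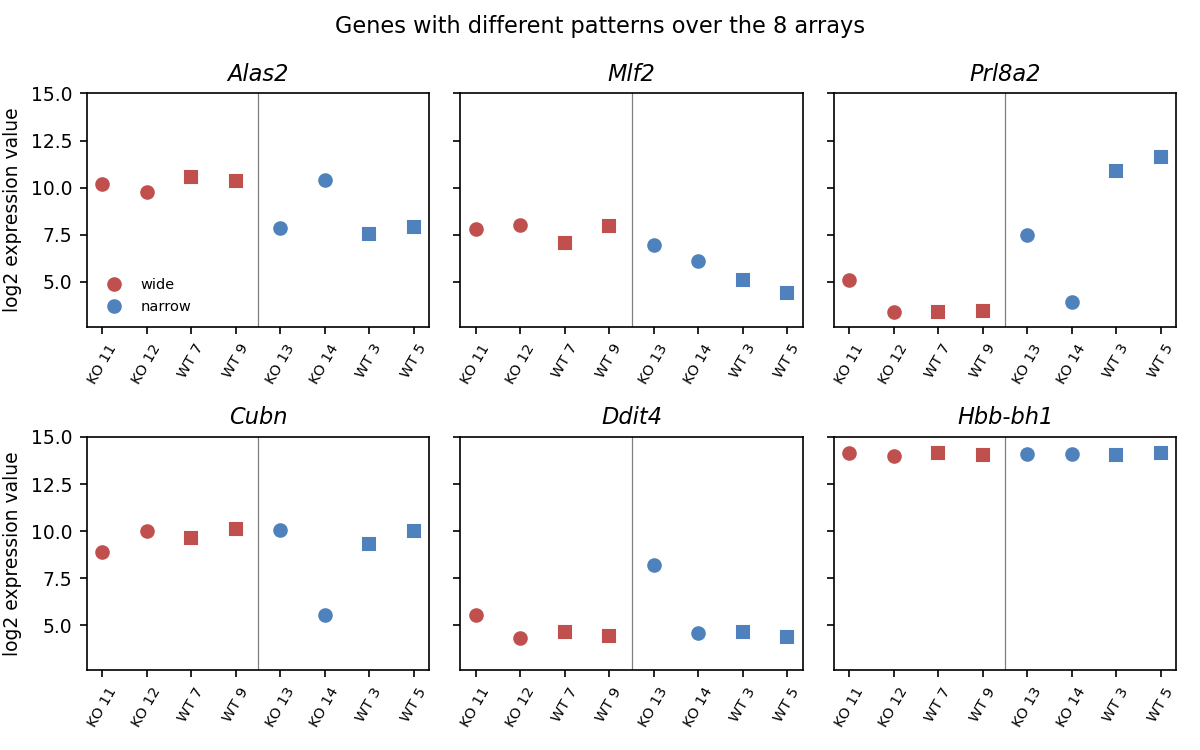
Log2 expression value (y axis) of 6 genes on each array (x axis), circles for knockout and squares for wild type, red for wide and blue for narrow arrays. Alas2 is low in knockout 13, wild type 3 and wild type 5, Mlf2 is higher on all wide arrays, Prl8a2 is high in wild type 3 and 5, Cubn is low in knockout 14 at 5.55, Ddit4 is high in knockout 13 at 8.21, and Hbb-bh1, at the top of the scale, lies between 14.01 and 14.17.

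Genes that did separate all wide from all narrow arrays had mixed roles. The rule for naming them also asked that the mean of the brighter side reach the median of all genes. The 12 with the largest difference and higher in the wide arrays included Mlf2, a nuclear protein related to a leukaemia factor, and Nt5dc2, a nucleotidase-like protein. Mlf2 measured 7.82, 8.03, 7.05 and 7.98 in the wide arrays and 6.95, 6.09, 5.08 and 4.42 in the narrow ones, a difference of 2.08. Nt5dc2 differed by 2.01 and Rab24, a small GTPase linked to autophagy, by 1.70. Smoc2, a matrix glycoprotein, lay between 6.43 and 7.57 in the wide arrays and 4.86 and 5.73 in the narrow, but its second probe set differed by -0.09. Flna, the actin cross-linker filamin A, differed by 1.498, Ccn4, a matricellular protein, by 1.58, and Gucy1b1, a subunit of soluble guanylate cyclase, by 1.52. The second probe set of Gucy1b1 differed by -0.10. Josd2, Ppp1r14a and Cmtm7 completed the 12 with Ppbp and Gp1bb, at 1.61 (1.06 without knockout 13), 1.497 and 1.49. For Cmtm7 the second probe set differed by -0.02. Across the array, 101 genes past 2-fold had a second probe set, which differed in the same direction for 74 (73.3%) and by 2-fold for 15.

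Under the same rule, which leaves out genes of larger difference whose sides overlap such as Prl8a2, the 12 lower in the wide arrays were led by Erv3, an endogenous retroviral sequence, and Prl4a1, a placental prolactin, at -1.93 and -1.81. Both came mainly from wild type 3 and 5: Prl4a1 measured 8.44 and 6.10 in them and 4.02 to 4.83 in the other arrays. Star, which moves cholesterol into mitochondria for steroid synthesis, measured 5.31, 4.92, 5.63 and 4.99 in the wide arrays and 5.94, 5.90, 6.33 and 7.51 in the narrow ones, and its other 2 probe sets differed by -1.36 and -1.17. Sema6c, a semaphorin, lay between 7.55 and 8.08 in the wide arrays and 8.48 and 8.95 in the narrow ones. Nxph3, a neurexophilin, lay between 6.53 and 6.79 against 7.16 and 7.87. Agbl5, Fyttd1, Serpinb9b, Rsad2, Slc39a14, Slc25a44 and Aif1l made up the rest, from -1.11 to -0.84, and Serpinb9b was at -0.56 without wild type 5. After quantile normalisation Rpl27a, Ccng2 and Zmym5 entered the genes of largest negative difference, at -1.28, -1.20 and -1.13.

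Accounting for the sides did not bring a genotype difference past the threshold. With a side term, limma called 0 of 22626 probe sets at a Benjamini-Hochberg adjusted p under 0.05 (lowest 0.230), and 2127 (9.40%) had an unadjusted p under 0.05. Without the term the count was also 0, the lowest adjusted p was 0.860 and 1222 were under 0.05 unadjusted. The side was chosen from these values and takes up spread among replicates, so p-values with the term describe only. Knockout lay above wild type on both sides for 713 genes (5.75%) and below for 402 (3.24%). Of these, Armc6, an armadillo repeat protein, had the largest difference among the 6 of smallest p that were higher, at 1.10 (SE 0.17, limma adjusted p = 0.28). It measured 6.28 and 6.62 against 5.08 and 5.65 in the wide arrays and 5.49 and 5.65 against 4.28 and 4.65 in the narrow ones, and between sides its second probe set differed by -0.15 where the first differed by 0.89. Mprip, which targets myosin phosphatase to actin, measured 9.49 and 9.57 against 8.90 and 8.995, and 8.51 and 8.52 against 7.56 and 7.41. Malat1, a nuclear noncoding RNA, was lower by -1.33 (SE 0.22, limma adjusted p = 0.28), at 5.82 and 5.93 against 7.21 and 6.55 in the wide arrays and 6.88 and 6.26 against 8.32 and 8.15 in the narrow ones. None of the 25 lists differed by genotype at an exact two-sided permutation p under 0.05, where 0.0286 is the smallest that 4 against 4 arrays can give. The endothelial list came nearest, at 0.32 higher in knockout (exact p = 0.0571, 0.714 adjusted over the 25 lists).

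More probe sets had a small unadjusted genotype p within the narrow arrays than within the wide ones. Here too the sides came from the same values, so these p-values and those of the interaction describe only. Among wide arrays limma called 0 probe sets (lowest adjusted p 0.399), with 1952 (8.63%) under 0.05 unadjusted. Among narrow arrays it also called 0, with a lowest adjusted p of 0.0507 and 4154 (18.4%) unadjusted. That 0 sat at the edge of the threshold. It became 82 after quantile normalisation, 26 after centring, 108 at a common interquartile range, 5 with dim probe sets left out and 62 with trend and robust fitting. It became 628 without knockout 13, 332 without knockout 14, 26 without wild type 3 and 19 without wild type 5. With one of these left out, the remaining narrow array of its genotype is assumed to vary like the other pairs. The interaction term, the genotype difference on one side minus that on the other, called 0 probe sets by limma (lowest adjusted p 0.170), with 3479 (15.4%) under 0.05 unadjusted. It called 31 without knockout 13, 11 without wild type 3 and 14 without wild type 5. Hdac2, a histone deacetylase, had one of the 3 smallest interaction p-values. It measured 8.61 and 8.22 in knockout against 7.66 and 7.87 in wild type on the wide side, and 6.70 and 6.62 against 8.47 and 8.27 on the narrow side (interaction 2.37, SE 0.26, limma adjusted p = 0.17).

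Probe sets with a negative score in the authors' deposited table differed mainly within the narrow arrays, and those with a positive score on both sides, more within the narrow. That table gives a signed score per probe set with no stated direction, and its sign matched knockout minus wild type for 74.5% of probe sets, so a negative score is read as lower in knockout. Of 105 probe sets with a negative score and a q-value under 0.05 in the authors' deposited table, 99 (94.3%) were at least 2-fold lower in knockout among the narrow arrays and 9 (8.57%) among the wide arrays. Over all probe sets these shares were 2.83% and 0.146%. Their median knockout minus wild-type difference was -1.81 within the narrow arrays and -0.09 within the wide ones. Of 114 with a positive score, 79 (69.3%) were 2-fold higher in knockout within the narrow arrays and 18 (15.8%) within the wide arrays, against 1.80% and 0.751% of all probe sets, with medians of 1.24 and 0.69. The q-values and these differences come from the same arrays, so the shares describe where the listed differences lie. Htra1, Prl8a2 and Prl7a1 had among the lowest scores in the authors' deposited table, at -7.27, -6.98 and -6.36. All 3 are among the genes high in wild type 3 and 5, and for the scored probe sets knockout minus wild type within the wide arrays was 0.33, 0.82 and -0.22. Ptp4a2, a protein tyrosine phosphatase, scored 6.02 in the authors' deposited table. It measured 11.77 and 11.56 in knockout against 8.37 and 8.10 in wild type on the narrow side, and 11.23 and 10.54 against 10.72 and 10.44 on the wide side.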

How the data were processed

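The authors deposited log2 values for each probe set on each array, already normalised. GCOS, RMA and affy are named, without version or order, in the submitters' processing notes. A second deposited table gives the authors' signed score, p-value and q-value per probe set, and its header states no direction. Of 22626 probe sets, 20380 have 1 gene symbol in the platform annotation, 691 several and 1555 none; a gene is its brightest probe set, which gave 12393 genes. Names were updated against GRCm38.p6.

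Values were used as deposited. Wide minus narrow is the mean of the differences in the 2 genotypes. Past 2-fold means a log2 difference of at least 1, and not overlapping means all 4 arrays of one side above all 4 of the other. Genotype was tested with limma 3.58.1 in R 4.3.3 (lmFit, eBayes, Benjamini-Hochberg, adjusted p under 0.05) on all 8 arrays, with a side term or with 4 groups of genotype and side; single values by exact permutation. The fit was checked on simulated data.

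The arrays, lists and rules were chosen with earlier results of these data known. Genes named per direction were the 12 of largest difference without overlap whose brighter side reached the median, 8 after quantile normalisation, up to 3 per list, Klf2, Klf1 and embryonic globins, 6 by genotype p and 3 by interaction p. Others were chosen after their values were seen. Alternatives were quantile normalisation, centring, a common interquartile range, leaving out dim probe sets, averaging probe sets, trend and robust fitting, array weights, no side term, and leaving out each array. The number of arrays limits the precision, and the replicates are labelled as biological.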

Additional observations from a re-analysis of the deposited data

Results flagged for a closer look

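Among 112 sets of 4 same-genotype arrays examined, 5 held an array far from the other 3, measured as its gap to the nearest array over the whole range of the 4. For independent sets chosen without the values, chance would give about 1 in 20. Many of the sets here are genes chosen because their sides did not overlap, and some lists share genes. That rate therefore does not apply, and the 5 are described only. Knockout 13 was high in the immediate early and stress list (gap 0.850 of the range) and low in Josd2 (0.894), where it measured 5.33. Wild type 7 was low in the same stress list (0.863), with a mean deviation of -0.28. Wild type 3 was low in embryonic globins (0.882), at -0.22. Wild type 9 was high in the endothelial list (0.965), at 0.05 against values near -0.23 in the other wild-type arrays.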

How the results depend on the processing

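Leaving out 1 array at a time, the lowest and highest values were 1634 and 2637 for genes whose sides do not overlap, 0.16 and 0.56 for the erythroid regulator median, -0.0047 and 0.32 for iron handling, -0.12 and -0.017 for haematopoietic progenitor genes, 0.12 and 0.19 for oxidative phosphorylation, 0.20 and 0.47 for the proteasome, 0.11 and 0.36 for histones, 0 and 628 for genotype calls within the narrow arrays, and 0 and 31 for interaction calls. The causes of these moves were not tested.

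Quantile normalisation gave 151 genes past 2-fold, 82 genotype calls within the narrow arrays, and list medians of -0.088 for nerve and muscle, 0.0092 for testis (from -0.11, so reversed), 0.047 for mitochondrial ribosomal proteins, 0.051 for oxidative phosphorylation, 0.30 for the cell cycle and 0.15 for the spliceosome. Centring gave 26 such calls, and 0.0016 for progenitor genes (from -0.07, reversed), -0.15 for nerve and muscle, -0.036 for testis and 0.20 for oxidative phosphorylation. A common interquartile range gave 108 calls. It moved globins to -1.04, placenta to -0.037, nerve and muscle to -0.0026 and the cell cycle to 0.16, and it reversed iron handling (-0.14), progenitors (0.041), testis (0.10), ribosomal proteins (-0.63), mitochondrial ribosomal proteins (-0.056), oxidative phosphorylation (-0.32), the spliceosome (-0.15), the proteasome (-0.21), glycolysis (-0.16) and sex-linked genes (0.021). Without dim probe sets there were 823 non-overlapping genes and 5 calls, with medians of 0.76 for megakaryocytes, 0.18 for progenitors (reversed), -0.32 for nerve and muscle, 0.094 for testis (reversed), 0.49 for histones and -0.51 for sex-linked genes. Averaging probe sets gave 0.12 for iron handling, -0.046 for testis and 0.076 for histones. Trend and robust fitting gave 62 calls. The causes were not tested.

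Haem synthesis, red cell membrane, erythroid regulator, megakaryocyte, cell cycle, Klf and Sp, and immediate early lists kept their direction under all these alternatives. Genotype calls with a side term and within the wide arrays were 0 under all alternatives by limma. Of the genes named in the report, Hba-x turned to -0.29 at a common interquartile range, and Hbb-bh1, whose difference is near 0, changed sign under several alternatives. No paired analysis was possible because the groups share no replicate number. Arrays were not compared for signal over background.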

Other observations

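Sex-linked RNAs varied over the pooled embryos. Xist, the RNA that silences one X chromosome in females, measured 7.60 in wild type 7 and 9.595 to 10.04 on the other arrays. Eif2s3y, a translation factor gene of the Y chromosome, measured 3.58 and 3.61 in knockout 11 and 12, 4.13 in knockout 14, 4.95 in wild type 9, and 6.22 to 7.85 in knockout 13 and wild type 3, 5 and 7. Neither followed the wide and narrow sides.

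Among genes at or above the median level, the side difference changed with the length of the gene in the wild-type arrays. Its median fell from 0.27 in the fifth of shortest genes to -0.10 in the fifth of longest ones, while in the knockout arrays it went from 0.24 to 0.37. The difference between the genotypes in this trend was not tested.

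Wild type 7 alone was low in Ncl, which encodes nucleolin of the nucleolus, at 8.79 against 10.32 to 11.01, and in Hmga2, a chromatin protein of embryonic growth, at 5.56 against 6.98 to 8.98. Both genes were picked with their values in view.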
